A study of Rattus norvegicus with 24 samples.

Results

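The colony-stimulating factors are secreted proteins that keep myeloid cells alive and drive their growth, and 7 genes of this family, 4 ligands and 3 receptor chains, were followed by RNA sequencing in 24 rat brain libraries. Rows of the deposited tables whose gene name is Csf1, Il34, Csf2, Csf3, Csf1r, Csf2ra or Csf2rb were taken, and all 7 were found among 29539 genes. Of these, 5 passed the filter on low counts that left 14421 genes for testing, and Csf2 and Csf3 did not. The genes were selected on measured values of these data, their levels in the libraries of the groups, and Csf2rb was singled out in that choice. Which comparison of the levels counted is not recorded, so every comparison of these 7 genes is given as a description, with fitted differences and their errors but no p. Where one of these genes is said below to pass a threshold or not, this too only describes the fit and tests nothing.

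The libraries fall into 3 groups of 8, named SKF, Vehicle and Normal Control. The series concerns a stab wound of the rat forebrain and SKF-81297, an agonist of D1-like dopamine receptors that was injected into the peritoneum daily for 3 days, the first dose 1 h after injury. The Vehicle group is named by that word alone and is read here as wounded brain without the agonist. Normal Control is not called sham-operated. No source used here gives the strain, age, sex, brain region or time of collection. The labels do not say that the 8 libraries of a group are 8 animals, so errors and p-values measure the spread between libraries.

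Csf1 and Il34 are separate ligands of 1 receptor tyrosine kinase, Csf1r, on which microglia depend for survival, and neurons are a main source of Il34 in brain. Csf2, or GM-CSF, binds an alpha chain, Csf2ra, that pairs with the common beta chain Csf2rb to signal through the kinase Jak2 and the factor Stat5. The same beta chain serves the receptors of Il3 and Il5. Csf3, or G-CSF, drives the making and release of neutrophils through its own receptor, Csf3r, which was added here as a gene outside the family list.

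Total counts per library ran from 8911339 to 12383368. Markers of brain tissue were present in every group, with all 10 neuron, 7 astrocyte and 6 oligodendrocyte markers detected. Skeletal muscle markers summed to between 5.84 and 12.6 CPM (read counts scaled to the library's TMM-adjusted total) in SKF and Vehicle libraries, and to between 8.81 and 2080 CPM in Normal Control libraries, where Normal Control 4 was the highest. Normal Control 4 and 6 stood apart from the other Normal Control libraries in earlier results of these data, and values without them are given where they bear on a result. In bulk tissue, fewer cells of a type and less RNA per cell cannot be told apart.

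Levels of different genes were compared as TPM, a unit that also divides by transcript length. Csf1r had the highest median of the 7 genes in each group, with 52.3 TPM in SKF, 55.7 TPM in Vehicle and 41.0 TPM in Normal Control. Il34 came next, with medians of 45.2 TPM in SKF, 47.9 TPM in Vehicle and 37.1 TPM in Normal Control, and its range overlapped that of Csf1r in each group. The order below these genes depended on the group. In SKF it ran Csf1 (35.9 TPM), Csf2rb (32.8 TPM) and Csf2ra (22.6 TPM), where the ranges of Csf1 and Csf2rb overlapped and Csf2ra, at most 24.3 TPM, lay below both. In Vehicle it ran Csf2rb (47.0 TPM), Csf1 (40.1 TPM) and Csf2ra (23.5 TPM), with the same overlap and Csf2ra, at most 27.4 TPM, again below. In Normal Control it ran Csf2ra (20.2 TPM), Csf1 (16.3 TPM) and Csf2rb (1.10 TPM), and there Csf2rb, from 0.696 to 1.46 TPM, lay far below Csf1, from 12.2 to 21.1 TPM. Csf3 had medians of 0.888 TPM in SKF, 2.33 TPM in Vehicle and 0 TPM in Normal Control, and the median of Csf2 was 0 TPM in all groups.

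**Figure D1:**
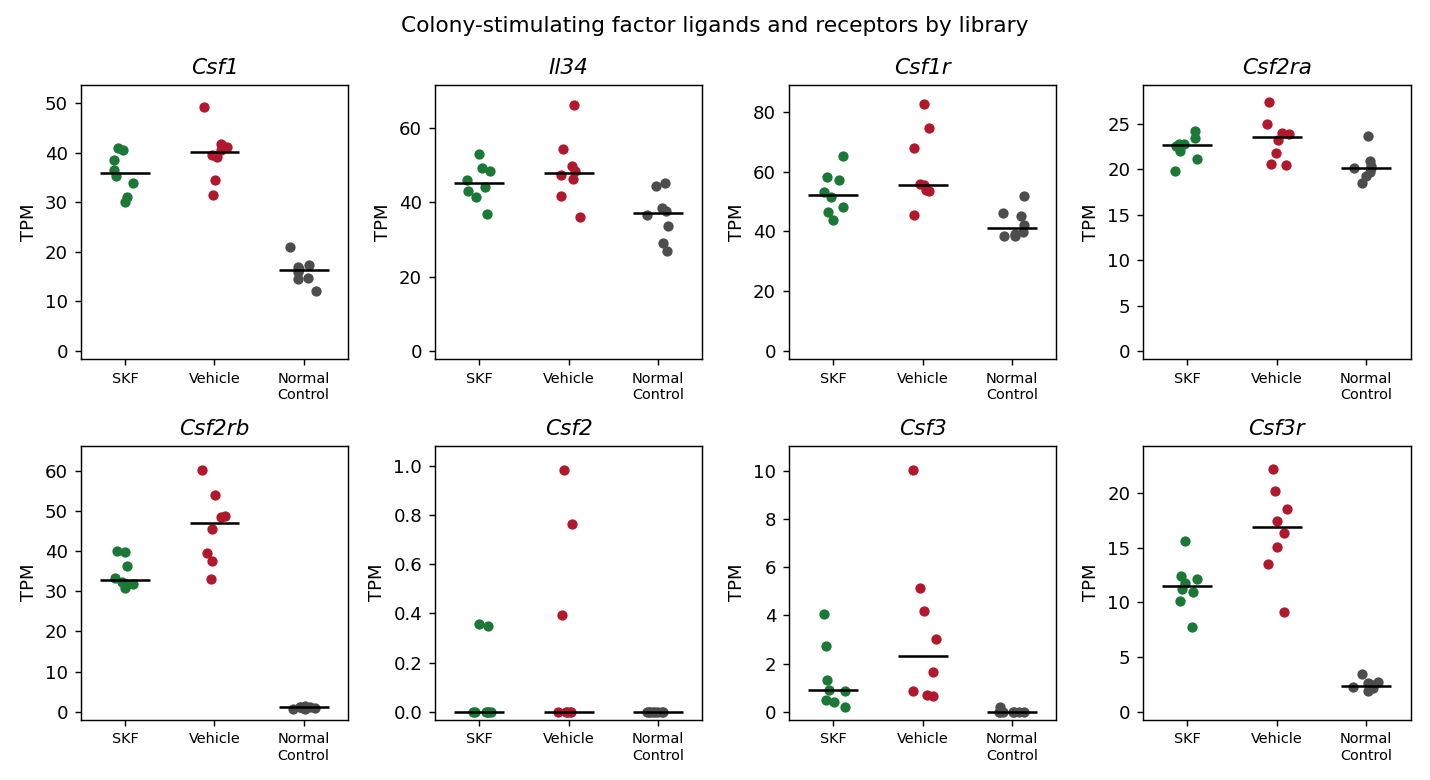
TPM (vertical axis, linear, a separate scale in each panel) of the 7 family genes and Csf3r in 8 SKF, 8 Vehicle and 8 Normal Control libraries, where each point is a library and the line is the group median. For Csf2rb and Csf1 every SKF and Vehicle library lies above every Normal Control library, whereas for Csf2ra the groups overlap.

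Csf1, the broadly made ligand of Csf1r, was higher in both wounded groups than in normal brain. Csf1 had 53.4 to 69.5 CPM in SKF (median 62.9), 52.1 to 86.5 CPM in Vehicle (median 68.1) and 24.3 to 37.3 CPM in Normal Control (median 29.8). Every SKF library and every Vehicle library lay above every Normal Control library. The log2 difference fitted by edgeR was 1.17 ± 0.09 (SE, n = 8 per group) for Vehicle against Normal Control, 1.05 ± 0.09 for SKF against Normal Control and -0.12 ± 0.09 for SKF against Vehicle. In SKF, 7 of 8 libraries lay below the Vehicle median, and the groups overlapped.

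Il34, the other ligand of Csf1r, differed far less between groups than Csf1. Its CPM ran from 22.9 to 34.5 in SKF (median 28.2), from 22.9 to 40.7 in Vehicle (median 29.5) and from 18.2 to 32.6 in Normal Control (median 24.9). All 3 groups overlapped, and 1 Vehicle library lay above the highest Normal Control library. The log2 difference was 0.29 ± 0.11 for Vehicle against Normal Control, 0.21 ± 0.11 for SKF against Normal Control and -0.08 ± 0.11 for SKF against Vehicle. Vehicle against Normal Control passed the threshold, an edgeR p under 0.05 after adjustment over all genes tested, but not without Normal Control 1, 3 or 7 or Vehicle 5 or 7, when the difference lay between 0.21 and 0.27. SKF against Normal Control did not pass, and did pass without Normal Control 6 (0.28) and on the TPM scale (0.32). In RefSeq build GRCr8 Il34 overlaps Rpl29l3 and LOC134483366, and Csf1 overlaps LOC120100914, and how reads there were assigned is unknown.

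The balance of both Csf1r ligands also differed between wounded and normal brain. Within a library, the ratio of Csf1 to Il34 in TPM ran from 0.636 to 0.916 in SKF (median 0.810), from 0.578 to 1.37 in Vehicle (median 0.820) and from 0.269 to 0.594 in Normal Control (median 0.464). All SKF libraries lay above the Normal Control range, while the lowest Vehicle library lay inside it. The ratio of Csf1r to the sum of both ligands ran from 0.504 to 0.783 in SKF (median 0.682), from 0.540 to 0.996 in Vehicle (median 0.642) and from 0.684 to 0.970 in Normal Control (median 0.794), with overlap throughout.

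Csf3, the neutrophil growth factor, was found almost wholly in wounded brain. It was counted 1 to 23 times per library in SKF (median 5), 4 to 47 times in Vehicle (median 12) and at most once in Normal Control, where 7 of 8 libraries had none. Each SKF and Vehicle library held at least 1 read of Csf3, and the Vehicle libraries lay above the Normal Control libraries in CPM. Summed over libraries, Csf3 had 62 counts in SKF, 131 in Vehicle and 1 in Normal Control. Per unit of depth this was 129 times as many in Vehicle as in Normal Control (95% exact interval 22.8 to 5138) and 57.9 times as many in SKF as in Normal Control (10.0 to 2322). These intervals cover counting error only, and the wide upper bounds come from the single read in Normal Control.

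The ratio of summed Csf3 in SKF to Vehicle was 0.448 (95% exact interval 0.326 to 0.611, counting error only). The libraries of both groups overlapped, with 3 of 8 SKF libraries below the lowest Vehicle library. Single libraries carried much of both sums: without Vehicle 1, which held 47 reads, the ratio was 0.618, and without SKF 3, which held 23, it was 0.321.

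Csf2 was at the edge of detection. It had 2 counts over all SKF libraries, 6 over all Vehicle libraries and 0 over all Normal Control libraries, which allows up to 0.0358 CPM over the Normal Control group (3 counts). No library held more than 3 reads, and no fold is given against a group at 0. In the fit with no filter on low counts Csf2 passed the threshold in Vehicle against Normal Control, where 3 of 8 Vehicle libraries held a read, and did not pass in SKF against Normal Control or in SKF against Vehicle. The other ligands of the common beta chain, Il3 and Il5, had 0 counts in all 24 libraries.

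Csf1r, the receptor kinase of microglia and macrophages, differed little between groups beside Csf2rb. It had 75.7 to 110 CPM in SKF (median 89.9), 77.8 to 141 CPM in Vehicle (median 95.4) and 70.1 to 92.0 CPM in Normal Control (median 79.8). Vehicle overlapped Normal Control, although 5 of 8 Vehicle libraries lay above its highest value, and in SKF 3 of 8 did. The log2 difference was 0.39 ± 0.10 for Vehicle against Normal Control, 0.21 ± 0.10 for SKF against Normal Control and -0.18 ± 0.10 for SKF against Vehicle. Of these, Vehicle against Normal Control passed the threshold; SKF against Normal Control passed only in some alternative settings, among them the TPM scale (0.30).

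Csf2ra, the chain that recognises GM-CSF, had the smallest differences of the 5 tested family genes. It had 49.4 to 56.3 CPM in SKF (median 53.8), 48.3 to 64.5 CPM in Vehicle (median 54.8) and 46.0 to 57.9 CPM in Normal Control (median 52.4). The groups overlapped throughout. The log2 difference was 0.07 ± 0.06 for Vehicle against Normal Control, 0.03 ± 0.06 for SKF against Normal Control and -0.03 ± 0.06 for SKF against Vehicle. On the TPM scale, where the median of all genes itself stood 0.11 higher in Vehicle than in Normal Control, Csf2ra in Vehicle was higher by 0.18 and passed. Il3ra, the alpha chain for Il3, had a log2 difference of 0.23 ± 0.12 (edgeR adjusted p = 0.125) in Vehicle against Normal Control. Il5ra, the alpha chain for Il5, had 1 count in SKF, 1 in Vehicle and 3 in Normal Control.

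Csf2rb, the shared signalling chain, stood apart from both alpha chains that could be measured. It had 32.9 to 43.8 CPM in SKF (median 37.8), 36.3 to 64.3 CPM in Vehicle (median 51.5) and 0.817 to 1.67 CPM in Normal Control (median 1.31). In reads, that is 367 to 531 in SKF, 335 to 634 in Vehicle and 9 to 18 in Normal Control. The lowest wounded library, at 32.9 CPM, lay far above the highest normal one. The log2 difference was 5.29 ± 0.14 for Vehicle against Normal Control, or 39.2-fold, and 4.91 ± 0.14 for SKF against Normal Control, or 30.0-fold. In each of these 2 comparisons Csf2rb had the smallest p of all 14421 genes, which describes the gene that was singled out and tests nothing.

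Between the wounded groups, Csf2rb was lower in SKF, with a log2 difference of -0.38 ± 0.10, or 0.766 of the Vehicle level. No SKF library reached the median of Vehicle, 2 were lower than any Vehicle library, and the groups overlapped. The mean was 38.4 ± 3.63 CPM in SKF and 50.1 ± 9.84 CPM in Vehicle (SD, n = 8 each), and whether the spread differs was not tested. In this comparison, in which no gene passed, Csf2rb ranked at place 9 of all genes by p, and this rank too tests nothing. Leaving out any 1 library gave differences from -0.44 (without Vehicle 6, the lowest of its group) to -0.33 (without Vehicle 1, the highest). Vehicle 1 was also the highest Vehicle library in Csf3, Csf3r, Il1b and Pim1. Without Normal Control 4 and 6, Csf2rb differed by 5.19 in Vehicle and 4.81 in SKF against the other Normal Control libraries.

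Because Csf2ra hardly moved, the make-up of the GM-CSF receptor transcripts shifted. The ratio of Csf2rb to Csf2ra in TPM ran from 1.39 to 1.77 in SKF (median 1.51), from 1.38 to 2.61 in Vehicle (median 1.88) and from 0.0333 to 0.0664 in Normal Control (median 0.0542). In TPM the beta chain thus exceeded the alpha chain in every wounded library, and the alpha chain exceeded the beta chain in every Normal Control library. The order in wounded brain rests on the division by transcript length. In CPM, Csf2ra in SKF (49.4 to 56.3) lay above Csf2rb (32.9 to 43.8). In Vehicle the CPM of Csf2ra (48.3 to 64.5) overlapped that of Csf2rb (36.3 to 64.3). Again in TPM, Csf1r stood at 1.29 to 1.80 times Csf2rb in SKF and at 0.925 to 1.81 times in Vehicle, against 32.1 to 56.9 times in Normal Control.

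**Figure D2:**
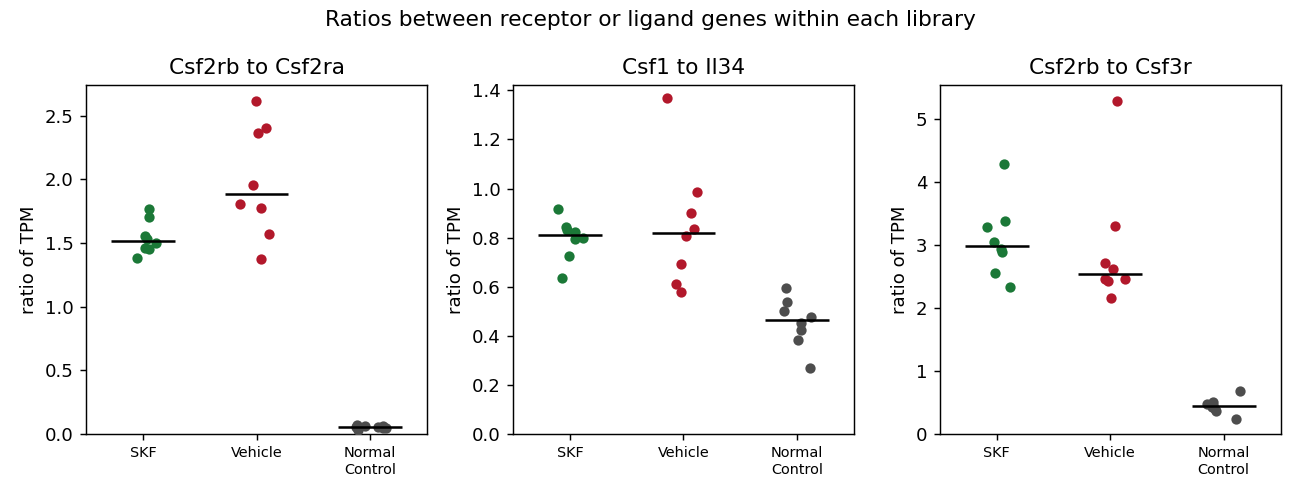
Ratio of TPM values (vertical axis, linear from 0) within each of 8 SKF, 8 Vehicle and 8 Normal Control libraries for 3 gene pairs, with points for libraries and lines for medians. The Csf2rb to Csf2ra ratio spans 1.39 to 1.77 in SKF, 1.38 to 2.61 in Vehicle and 0.0333 to 0.0664 in Normal Control.

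Csf3r, the G-CSF receptor of neutrophils, differed in the same direction as Csf2rb in all 3 comparisons and by less against normal brain. It had 9.08 to 17.7 CPM in SKF (median 13.6), 10.6 to 24.9 CPM in Vehicle (median 19.5) and 2.36 to 4.17 CPM in Normal Control (median 3.09). Wounded and normal libraries did not overlap. Csf3r rose by 2.61 ± 0.16 in Vehicle (edgeR adjusted p = 1.04e-13) and by 2.11 ± 0.16 in SKF (adjusted p = 1.03e-11) against Normal Control. In SKF against Vehicle its log2 difference was -0.50 ± 0.14 (edgeR adjusted p = 0.656), with 8 of 8 SKF libraries below the Vehicle median. The ratio of Csf2rb to Csf3r in TPM ran from 2.33 to 4.28 in SKF (median 2.99), from 2.15 to 5.28 in Vehicle (median 2.53) and from 0.236 to 0.677 in Normal Control (median 0.443), so the wounded groups overlapped each other and not normal brain.

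**Figure D3:**
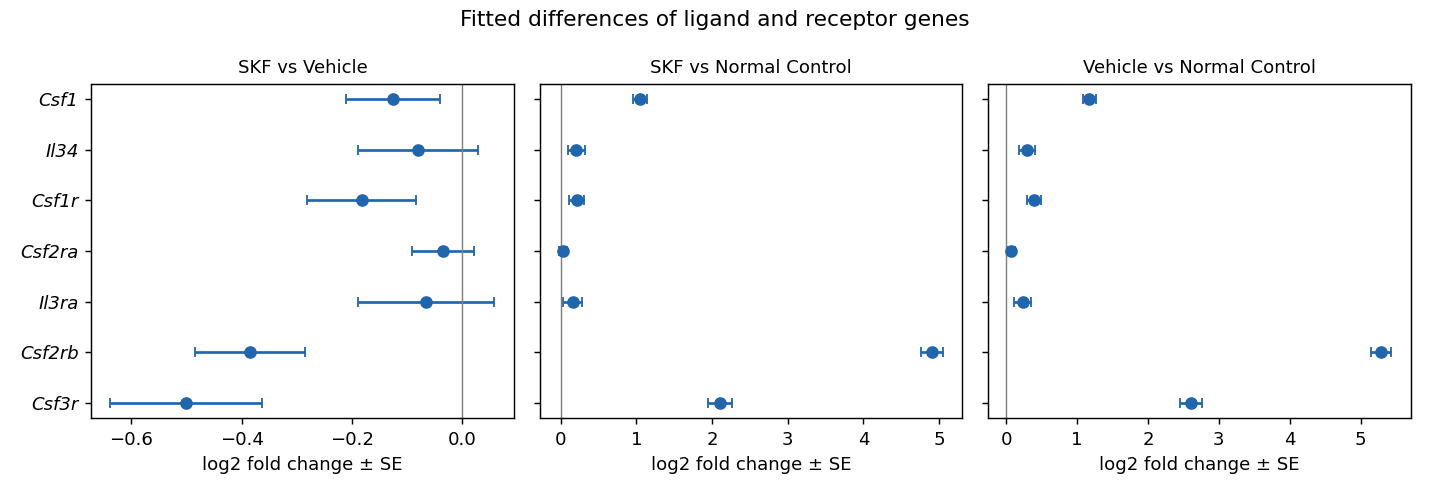
Fitted log2 fold changes with standard errors (horizontal axis, separate scale in the left panel) of 5 family genes, Il3ra and Csf3r for SKF vs Vehicle, SKF vs Normal Control and Vehicle vs Normal Control. Csf2rb reaches 5.29 in Vehicle and 4.91 in SKF against Normal Control while Csf2ra stays at 0.07 and 0.03, and all 7 genes lie below 0 in SKF vs Vehicle.

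Counted over the family, 4 of the 7 genes were higher past the threshold in Vehicle against Normal Control (Csf1, Il34, Csf1r and Csf2rb), beside 26.9% of all genes tested. Csf2ra did not pass there, and Csf2 and Csf3 were under the filter. In SKF against Normal Control, 2 were higher (Csf1 and Csf2rb), beside 25.5% of all genes tested. In SKF against Vehicle 0 of the family passed. Nor did any of the 14421 genes by edgeR (0%), where 715 genes (4.96%) had an unadjusted p under 0.05, and DESeq2 called 6 genes, none of them in the family. Of the 5 tested family genes, Csf1 and Csf2rb were those whose Vehicle libraries all lay above Normal Control, as was so for 11.6% of all genes tested. Csf1 and Csf2rb were also those whose SKF libraries all lay above Normal Control, beside 11.5% of all genes tested. The comparisons with Normal Control share the same 8 libraries. Nothing is read from these counts, since the genes may have been chosen on these comparisons.

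Promoter windows were available for Csf3r, Csf1r, Csf2ra and Csf2, and none was available for Csf2rb, Csf1, Il34 or Csf3. Sequences are shown for the 3 receptor genes among those available. On the log2 scale in Vehicle against Normal Control these differed by 2.61 (Csf3r), 0.39 (Csf1r) and 0.07 (Csf2ra). The myeloid factor PU.1, made from Spi1, binds purine-rich sites around GAGGAA and is a known regulator of myeloid receptor genes. The sequences are from RefSeq, build GRCr8, and run from 250 bases before to 50 bases after the start the table gives, 5′ to 3′. The letters GAGGAAG, searched on both strands, are in capitals.
Csf3r promoter, chr5:143582970-143583269 (+ strand): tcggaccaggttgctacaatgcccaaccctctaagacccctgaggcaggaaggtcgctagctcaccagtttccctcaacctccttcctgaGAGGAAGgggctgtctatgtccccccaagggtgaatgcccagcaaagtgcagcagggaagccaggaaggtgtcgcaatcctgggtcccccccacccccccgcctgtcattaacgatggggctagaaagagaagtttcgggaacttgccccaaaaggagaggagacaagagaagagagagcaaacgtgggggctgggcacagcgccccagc
Csf1r promoter, chr18:56834129-56834428 (+ strand): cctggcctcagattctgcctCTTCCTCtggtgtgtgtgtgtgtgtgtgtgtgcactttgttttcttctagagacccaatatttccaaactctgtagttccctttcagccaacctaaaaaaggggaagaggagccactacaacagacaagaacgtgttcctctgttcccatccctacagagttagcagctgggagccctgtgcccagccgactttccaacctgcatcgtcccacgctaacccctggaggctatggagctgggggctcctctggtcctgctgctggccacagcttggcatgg
Csf2ra promoter, chr14:118068-118367 (- strand): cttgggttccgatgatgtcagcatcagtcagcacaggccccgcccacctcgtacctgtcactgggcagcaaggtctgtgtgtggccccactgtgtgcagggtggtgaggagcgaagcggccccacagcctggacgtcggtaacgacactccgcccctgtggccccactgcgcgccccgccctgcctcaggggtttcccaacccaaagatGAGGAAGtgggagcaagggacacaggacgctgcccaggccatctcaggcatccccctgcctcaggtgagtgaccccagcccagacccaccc
Each of these windows held the 7 letters once, in Csf1r as the reverse complement, and 12.4% of 33469 windows of the same length held them. The match is thus found in Csf3r and in Csf2ra alike, and it is a description of letters and not of a binding site. The window of Csf2 did not hold these 7 letters, but it held the shorter GAGGAA as its reverse complement. The Csf1r window held a further GAGGAA in that form, which is not in capitals. How many of all windows hold the shorter letters was not counted.

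The other genes of these pathways were mostly higher in wounded brain. Of 49 genes on 8 lists, chosen with earlier results known, 46 are in the tables, 39 were tested, 30 rose in Vehicle against Normal Control and 0 fell, where 26.9% of all genes tested rose and 27.1% fell. In SKF against Normal Control 31 rose and 0 fell, beside 25.5% and 24.7% of all genes. Listed genes scarce in Normal Control, such as Osm, passed the filter through wounded libraries, so their part in these counts is no test. The median log2 difference over the lists was 1.32 in Vehicle and 1.21 in SKF, each against Normal Control, with -0.01 over all genes in both. The listed genes outside the tables were not analysed here.

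In the signalling chain below the receptors, 5 of 6 genes rose in Vehicle and the same number in SKF. Jak2, the kinase bound to the beta chain, rose by 0.62 in Vehicle and by 0.67 in SKF. Stat3, which carries the G-CSF signal, rose by 1.89 ± 0.10 in Vehicle (edgeR adjusted p = 7.08e-15) and by 1.92 ± 0.10 in SKF (adjusted p = 7.10e-15). Stat5a rose by 0.99 ± 0.13 in Vehicle (edgeR adjusted p = 1.95e-07), whereas its close relative Stat5b had a log2 difference of -0.08 (edgeR adjusted p = 0.411).

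Of 8 feedback and target genes, 6 rose in Vehicle and 6 in SKF. Socs3, a feedback inhibitor of cytokine receptors, rose by 6.06 ± 0.23 in Vehicle (edgeR adjusted p = 3.10e-16) and by 5.73 ± 0.23 in SKF (adjusted p = 1.01e-15). Cish, a Stat5 target that dampens the same receptors, rose by 1.43 in Vehicle and 1.37 in SKF. Osm, the cytokine oncostatin M and a Stat5 target, rose by 4.31 ± 0.42 in Vehicle and by 3.68 ± 0.43 in SKF. With at most 5 counts in any Normal Control library, Osm passed the filter only through wounded libraries, so its rise is no test. Socs2, also a Stat5 target, did not pass in Vehicle (0.10, edgeR adjusted p = 0.588).

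Among partners of the receptors, Sdc1, a proteoglycan that binds Il34, rose by 3.61 ± 0.23 in Vehicle (edgeR adjusted p = 3.14e-12) and by 3.37 ± 0.23 in SKF (adjusted p = 1.30e-11). Tyrobp, the adaptor DAP12, rose by 2.57 ± 0.13 in Vehicle and by 2.41 ± 0.13 in SKF. Its partner Trem2 did not pass in Vehicle (-0.14, edgeR adjusted p = 0.693). Of 13 adaptors, kinases and phosphatases, 9 rose in Vehicle and 10 in SKF. Without Normal Control 6 the kinase subunit Pik3cd also passed, at 0.33 in Vehicle and 0.27 in SKF, against 0.11 and 0.05 with all libraries. The adaptor Grb2 lost its call in SKF without SKF 2 (0.13, against 0.16 with all libraries). The myeloid Src-family kinase Fgr rose by 3.26 ± 0.15 in Vehicle and by 2.89 ± 0.15 in SKF.

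All 5 tested transcription factors of myeloid cells rose in Vehicle and in SKF. Spi1 rose by 2.09 ± 0.16 in Vehicle (edgeR adjusted p = 1.66e-11) and by 1.90 ± 0.16 in SKF (adjusted p = 1.38e-10). Irf8, needed for macrophage fate, rose by 1.30 in Vehicle and 1.26 in SKF. Cebpb, which acts in emergency granulocyte production, rose by 2.40 ± 0.18 in Vehicle and by 1.99 ± 0.18 in SKF. Of the cytokines that induce colony-stimulating factors, Tnf rose by 2.69 ± 0.25 in Vehicle and by 2.14 ± 0.26 in SKF, and Il1b rose by 6.04 ± 0.89 in Vehicle (4.70 without Vehicle 1) and by 4.13 ± 0.94 in SKF. Il17a had 0 counts in all libraries.

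**Figure D4:**
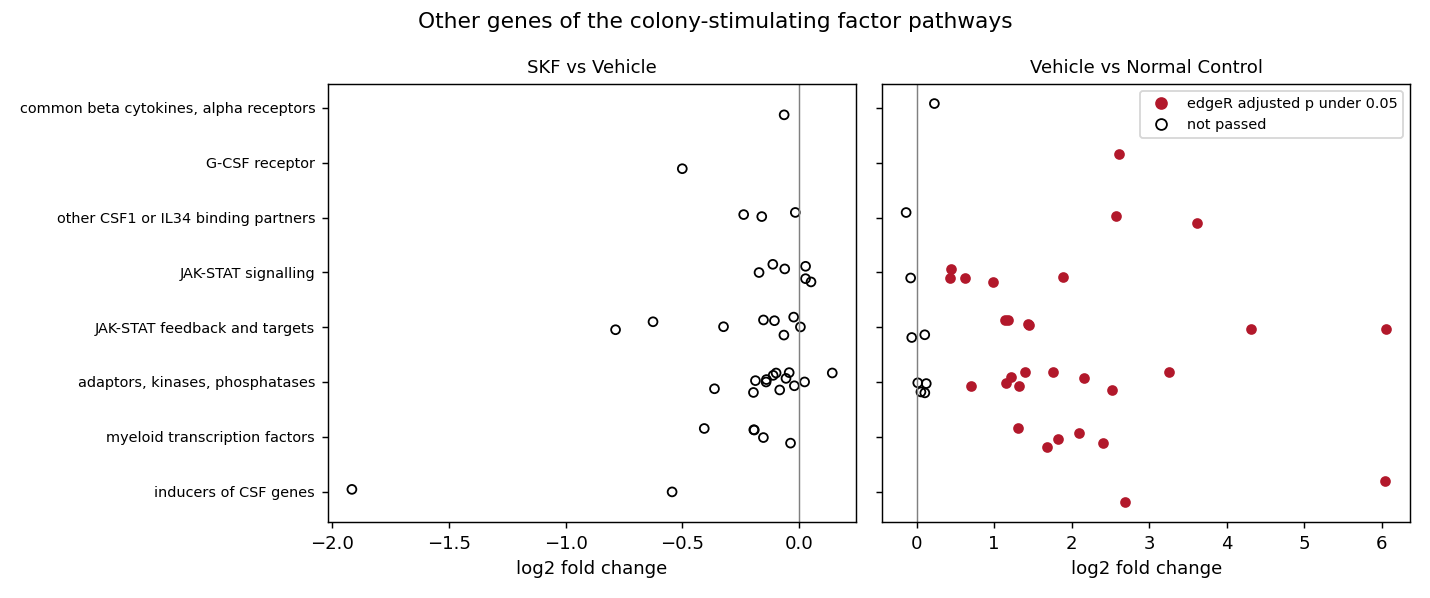
Log2 fold change (horizontal axis, a separate scale in each panel) of the 39 tested pathway genes in 8 lists (rows) for SKF vs Vehicle and for Vehicle vs Normal Control, where each point is a gene and filled points passed. In Vehicle vs Normal Control 30 points are filled and all of these lie above 0, and in SKF vs Vehicle none is filled and 33 lie below 0.

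In SKF against Vehicle 0 of the 39 passed. Of these, 7 had an unadjusted p under 0.05, beside 4.96% of all genes. Their median log2 difference was -0.11, beside 0.00 over all genes, and 33 of them (84.6%) were below 0, beside 49.5% of all genes. Nothing is read from these counts, since the lists were chosen with earlier results known and the genes share the same libraries. The 3 smallest p belonged to Csf3r, to the kinase Pim1, a Stat5 target, and to Il1b. Pim1 had -0.79 ± 0.25 (edgeR adjusted p = 0.787), with 1.68 to 5.11 CPM in SKF (median 2.70) and 3.03 to 9.81 CPM in Vehicle (median 4.79). Il1b had -1.92 ± 0.61 (edgeR adjusted p = 0.838) and -0.57 without Vehicle 1, the library with 91.1 CPM of Il1b.

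Tested markers listed for blood-derived myeloid cells were, like Csf2rb, higher in wounded than in normal brain. Whether they mark only such cells was not tested. Of 14 neutrophil markers in the tables, summed levels ran from 98.9 to 236 CPM in SKF, from 119 to 252 CPM in Vehicle and from 1.73 to 6.72 CPM in Normal Control. Lcn2 alone, which cells of brain also make after injury, had medians of 99.5 CPM in SKF, 113 CPM in Vehicle and 0.763 CPM in Normal Control, and so carried most of the sum in wounded brain. All 6 markers that passed the filter rose in both wounded groups against Normal Control, and 8 were under it. Markers so scarce in Normal Control pass the filter mainly through wounded libraries. Their rise was thus largely fixed by the filter and is no test. Among the granule genes under the filter, Ltf was at 0 in all groups and Elane at 0 in Normal Control. Ngp had 3 counts in SKF, 3 in Vehicle and 9 in Normal Control, and Camp had 9 in SKF, 34 in Vehicle and 20 in Normal Control. The 11 markers listed for blood-derived monocytes and macrophages summed to 394 to 630 CPM in SKF and 396 to 695 CPM in Vehicle. In Normal Control they summed to 95.6 to 135 CPM, and Mcemp1 was at 0 there. Fn1 and Vcan, matrix genes that other cells also make, carried most of these sums, with medians of 315 and 91.0 CPM in SKF, 359 and 106 CPM in Vehicle and 47.4 and 52.3 CPM in Normal Control. All 11 rose in both wounded groups against Normal Control, and Mcemp1 could pass the filter only through wounded libraries. Others far lower in Normal Control, such as Msr1 (378-fold higher in Vehicle), may have passed mainly that way. The rise of such markers is no test. The 10 microglia markers were mixed. They summed to 183 to 234 CPM in SKF, 185 to 253 CPM in Vehicle and 226 to 287 CPM in Normal Control, with overlap, and Siglech was at 0 in Normal Control. Of the 9 tested, 1 rose (Aif1) and 4 fell in Vehicle against Normal Control, and 1 rose (Aif1) and 5 fell in SKF against Normal Control. Over all genes tested, 26.9% rose and 27.1% fell in Vehicle, and 25.5% rose and 24.7% fell in SKF. The part of any of these cells in the Csf2rb level was not tested.

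Csf2rb was also set against these markers in the same library, without a test. The neutrophil score (mean log2 CPM of 6 tested markers) differed by -0.51 between SKF and Vehicle, the monocyte and macrophage score by -0.35 and the microglia score by -0.03. Fitted differences within the neutrophil score were uneven, from -0.93 for S100a9 to -0.05 for Mmp9, with Lcn2 at -0.19. Those within the monocyte and macrophage score ran from -0.64 for Ly6c to -0.13 for Vcan. Within the microglia score they ran from -0.37 for Selplg to 0.26 for P2ry13. The gap between Csf2rb and each score thus depends on the markers in it. Csf2rb minus the neutrophil score averaged 2.06 ± 0.31 in SKF and 1.91 ± 0.29 in Vehicle (log2, SD, n = 8 each). Csf2rb minus the monocyte and macrophage score averaged 1.56 ± 0.22 in SKF and 1.57 ± 0.27 in Vehicle. Csf2rb minus the microglia score averaged 1.60 ± 0.25 in SKF and 1.93 ± 0.40 in Vehicle. In Normal Control these 3 differences averaged 1.37 ± 0.56, -0.11 ± 0.33 and -3.80 ± 0.41. SKF minus Vehicle, the mean of Csf2rb relative to a reference was thus 0.15 for the neutrophil score, -0.01 for the monocyte and macrophage score and -0.33 for the microglia score. Relative to single genes it was 0.11 for Csf3r, -0.16 for the leukocyte gene Ptprc, -0.16 for the myeloid integrin gene Itgam and -0.20 for Csf1r.

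The genes with the pattern most like each family gene were found by the root mean square difference in log2 CPM, each gene set to its Normal Control mean, over 24 libraries and 12958 genes. For Csf2rb they were Gpnmb (0.411), Il11 (0.460), Slpi (0.483), Scimp (0.519) and Trem1 (0.539). Gpnmb is a glycoprotein of lipid-laden phagocytes and Trem1 a receptor that amplifies inflammation in neutrophils and monocytes. The 4 after Gpnmb have few reads in Normal Control, and their changes on this scale are held down by the prior count of 2. Gpnmb differed by 4.75 ± 0.13 in Vehicle against Normal Control, 4.53 ± 0.13 in SKF against Normal Control and -0.21 ± 0.11 in SKF against Vehicle. For Csf1 the nearest were Litaf (0.117), Myh9 (0.127) and Scamp2 (0.138), and among those nearest to Csf1r were Arap1 (0.138) and Stx2 (0.169). Il34 was nearest to Grik5 (0.181), a glutamate receptor subunit, then Phf23 (0.182) and Magi3 (0.183). Csf2ra was nearest to Eif4h (0.0848), Ncaph2 (0.0868) and Cog4 (0.0892).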

How the data were processed

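Per the labels, RNA from rat brain was selected for poly(A) and made into directional libraries. The authors deposited raw counts per gene (whole numbers) and TPM for 24 libraries. The build is mRatBN7.2 per the submitters' processing notes; aligner, counting program and use of strand: not given in the sources used here. Groups were read from the titles.

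The count test was the robust quasi-likelihood F test of edgeR 4.0.16, run in R 4.3.3 (TMM, filterByExpr by group, 21 residual degrees of freedom) on all 24 libraries in 1 fit, with Benjamini-Hochberg adjustment over 14421 genes and a threshold of 0.05. The standard error of a log2 fold change is its size divided by the root of F. CPM used TMM library sizes, and scores used log2 CPM with a prior count of 2. The test was tested on simulated data. Family genes, gene lists and the naming rule were chosen with earlier results of these data known. All 7 family genes were named. To these were added a fixed set, up to 2 rises and 2 falls that passed per list, the 3 pathway genes of smallest p in SKF against Vehicle, and the nearest genes in pattern; a few genes that the rule names are not reported here. Trem2, Socs2, Pik3cd, Grb2, Il3, Il5 and Il17a were named after their values were seen. Cell marker lists were likewise chosen. Other tools were Matplotlib 3.10.9, pandas 2.3.3, SciPy 1.17.1, NumPy 2.4.6, Python 3.11.15, DESeq2 1.42.0 and limma 3.58.1. The alternatives were DESeq2, RLE size factors, no filter, a filter of CPM 1 in 8 libraries, a fit of just the compared groups, voom with weights per sample, the replicate number as a block, limma on log-scaled TPM (adding 1 or 0.1, with a floor of 0.5 TPM in 8 libraries or without one), no Normal Control 4 and 6, and each library left out.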

Additional observations from a re-analysis of the deposited data

Results flagged for a closer look

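In 38 sets of 8 values (8 genes and 5 ratios in each group, leaving out a set with no spread), 2 held a library whose gap to its nearest neighbour was a large part of the group's range, and chance gives about 1 such set in 20. The ratio of Csf2rb to Csf3r in TPM was 5.28 in Vehicle 4, against a Vehicle median of 2.53. Csf3 stood at 0.0988 CPM in Normal Control 8, which is its single read, against 0 in the other Normal Control libraries.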

How the results depend on the processing

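Csf2rb kept its direction and its side of the threshold in all 35 alternatives of each comparison: 4.49 to 5.36 in Vehicle against Normal Control, 4.11 to 4.98 in SKF against Normal Control and -0.44 to -0.30 in SKF against Vehicle. Csf1 kept both as well, at 1.11 to 1.29, 0.99 to 1.15 and -0.17 to -0.07. In Vehicle against Normal Control, Csf2ra passed at 0.18 on log2(TPM + 1), with or without the filter, and at 0.19 with a pseudocount of 0.1. Il34 lost its call in 5 of 24 omissions, which ranged from 0.21 to 0.35. In SKF against Normal Control, Csf1r passed with only the 2 groups compared (0.21), with voom (0.23) and on the TPM scale (0.30 with a pseudocount of 1 and 0.31 with 0.1), and in 2 omissions, without Vehicle 8 or SKF 6 (range 0.17 to 0.25). Il34 passed there with voom (0.26), on the TPM scale (0.31 and 0.32), without Normal Control 4 and 6 together (0.29) and in 1 omission (range 0.16 to 0.28). In SKF against Vehicle, Csf2ra turned to 0.00302 without Vehicle 7 (range -0.0617 to 0.00302), and DESeq2 called 6 genes where edgeR called 0. The cause of these changes was not tested. Same-numbered libraries did not deviate together (their correlations averaged -0.08 to 0.02 by number), so replicate numbers pair nothing; with the replicate block Csf2rb was at -0.37 in SKF against Vehicle and no family call changed. Pathway genes called numbered 30 to 36 in Vehicle and 29 to 32 in SKF over all alternatives, each against Normal Control. On the TPM scale the 7901 calls of Vehicle against Normal Control split into 5491 higher and 2410 lower, against 3879 and 3904 in the count test, and those of SKF against Normal Control into 5004 and 2304, against 3682 and 3557. Pim1 lost its call in SKF against Normal Control in 9 of 35 alternatives. Depth limits Csf2 and Csf3, which were tested only in the fit with no filter: there Csf3 passed in Vehicle and in SKF against Normal Control, Csf2 passed in Vehicle against Normal Control, and neither passed in SKF against Vehicle.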

Other observations

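Relations across libraries were computed within the wounded groups, since wounded and normal libraries form separate clusters. Over 8 relations, p-values were adjusted by Benjamini-Hochberg, and the points of a relation share depth and scaling. Csf2rb and the neutrophil score had Pearson r = -0.36 in SKF (exact permutation p = 0.374, adjusted p = 0.759) and Spearman rho = -0.40 (exact permutation p = 0.327, adjusted p = 0.523). In Vehicle they had r = 0.63 (exact permutation p = 0.0904, adjusted p = 0.361) and rho = 0.50 (exact permutation p = 0.216, adjusted p = 0.523). Without the 2 libraries farthest from the median score, r was 0.03 in SKF and 0.28 in Vehicle. The relations of Csf2rb with the monocyte and macrophage score and with the microglia score had r between -0.14 and 0.36 (smallest exact permutation p = 0.380, adjusted p = 0.759) and rho between -0.29 and 0.48 (smallest exact permutation p = 0.243, adjusted p = 0.523), and none passed. Without the 2 farthest libraries these r lay between -0.83 and 0.35.

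Csf3 and Il1b, an interleukin that induces it, were correlated among Vehicle libraries on the log2 scale (r = 0.80, exact permutation p = 0.00466, adjusted p = 0.0373), and r was 0.68 without the 2 libraries farthest from the median of Il1b. By rank the relation did not pass (rho = 0.79, exact permutation p = 0.0279, adjusted p = 0.223). In SKF libraries r was 0.12 (exact permutation p = 0.771, adjusted p = 0.881) and rho 0.05 (exact permutation p = 0.935, adjusted p = 0.935), with r = 0.56 without the 2 farthest. Whether the groups differ in this relation was not tested.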
